A study of Mus musculus with 6 samples.

Results

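The genes described here are those of the proteasome, its interferon-inducible form the immunoproteasome, and their activators and assembly factors, in cytotoxic (CD8+) T lymphocytes of the mouse. They were chosen by name, as every row of the count table whose symbol is Psm followed by a letter from a to g and a digit. That gave 50 of 14481 genes, and all 50 passed the filter on low counts. Both groups were sorted wild-type CD8+ T cells, stimulated through anti-CD3 and anti-CD28 at 1 µg/ml each, with 0.1 µg/ml of the growth factor IL-2. One group of 3 libraries, STAT3+ CM, received after a day conditioned medium (CM) of astrospheres labelled pSTAT3+, and the other, STAT3- CM, also of 3, received it from astrospheres labelled pSTAT3-. RNA was taken at day 3. The label pSTAT3 refers to STAT3, a transcription factor active when phosphorylated, in the cells that made the medium, not in the T cells. The labels do not say what separates the astrospheres beyond this, nor whether replicates were separate mice or cultures, so p-values here measure only the spread between these samples. Cells without any CM were not analysed here.

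The proteasome is the barrel-shaped protease that degrades ubiquitin-tagged proteins. Its 20S core has rings of alpha subunits, which form the gate, around rings of beta subunits, some of which cut. The 19S cap recognises, unfolds and feeds in the substrate. Interferon gamma induces a set of replacement catalytic subunits and the 11S activator, and lymphocytes carry this immunoproteasome even at rest. Its products are a main source of the peptides shown on MHC class I. Activated T cells divide fast and make much protein, and proteasome genes are known to be coordinately transcribed, in mammals through the factor NRF1, which the gene Nfe2l1 encodes.

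Total counts ran from 43346089 to 53630514 per library. Transcripts of the CD8 T cell list (7 genes, Cd8a and the CD3 chains among them) summed to 2425 to 3158 counts scaled to library size (counts per 1e6, CPM) in STAT3+ CM and 2402 to 2630 CPM in STAT3- CM. The B cell markers Ms4a1, Cd79a and Pax5 and the dendritic cell markers Flt3, Clec9a and Xcr1 were not among the rows. The B cell marker with a row, Cd79b, had 10.9, 10.9 and 11.8 CPM in STAT3+ CM and 7.39, 7.71 and 10.7 CPM in STAT3- CM. These groups did not overlap, as in 3.78% of all genes tested with STAT3+ CM higher (log2 fold change 0.39, adjusted p = 0.989 by edgeR). Cd4 averaged 1.26 CPM in STAT3+ CM and 1.03 CPM in STAT3- CM. The 7 dendritic cell markers tested, which include MHC class II genes that other cells can make, summed to 95.3 to 120 CPM in STAT3+ CM and 132 to 185 CPM in STAT3- CM. Of these 7 markers 6 lay below 0, and the median log2 fold change was -0.61. In 4 the groups did not overlap, all lower in STAT3+ CM, beside 4.18% of all genes tested. DESeq2 called 2, H2-Aa and Cd74, while edgeR called 0. Over all genes, the quasi-likelihood test of edgeR, adjusted by Benjamini-Hochberg, called 0 of 14319 genes (0.0%) at an adjusted p of 0.05, while 521 (3.64%) had an unadjusted p under 0.05 and DESeq2 called 48 (0.335%). A positive log2 fold change means a higher level in STAT3+ CM, CPM are scaled by library total and TMM factor, and intervals are 95% intervals from the same fit, not adjusted for the number of genes.

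For no proteasome gene was a difference between the media found beyond the spread between replicates. Of the 50 genes, 0 were called by edgeR, 0 by DESeq2, and 0 had an unadjusted edgeR p under 0.05, against 3.64% of all genes tested (1.34% higher and 2.3% lower in STAT3+ CM). In all 50 genes the range of the 3 STAT3+ CM libraries overlapped that of the 3 STAT3- CM libraries, whereas 7.95% of all genes tested had groups that did not overlap (3.78% higher and 4.18% lower in STAT3+ CM). The smallest adjusted p was 0.989. The values nonetheless leaned to the higher side in STAT3+ CM: 47 of 50 log2 fold changes were above 0, beside 50.2% of all genes, and their median was 0.14, beside 0.001 for all genes. The 3 below 0 were the giant activator gene Psme4 and the 19S scaffold genes Psmd1 and Psmd2. These genes vary together from library to library, so the 47 signs are not 47 separate observations. Without STAT3- CM replicate 3 the count above 0 was 35 and the median 0.04, and without STAT3+ CM replicate 2 they were 36 and 0.05.

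The measurement was precise enough to bound most of these differences. For the 31 constitutive subunits of 20S and 19S, every interval lay within a 1.5-fold change in either direction (0.585 on the log2 scale), with bounds from -0.40 to 0.56. Over all 50 genes this held for 43, and all 50 intervals spanned 0. None of the 3 immunoproteasome catalytic subunits was bounded that closely, as their upper bounds reached 0.70. Counting error was small beside the replicate spread: the lowest count of Psmb8 in any library was 25054 and that of Psmb10 3370, a counting error (the inverse square root of the count) of 0.632% for Psmb8 and 1.72% for Psmb10.

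**Figure D1:**
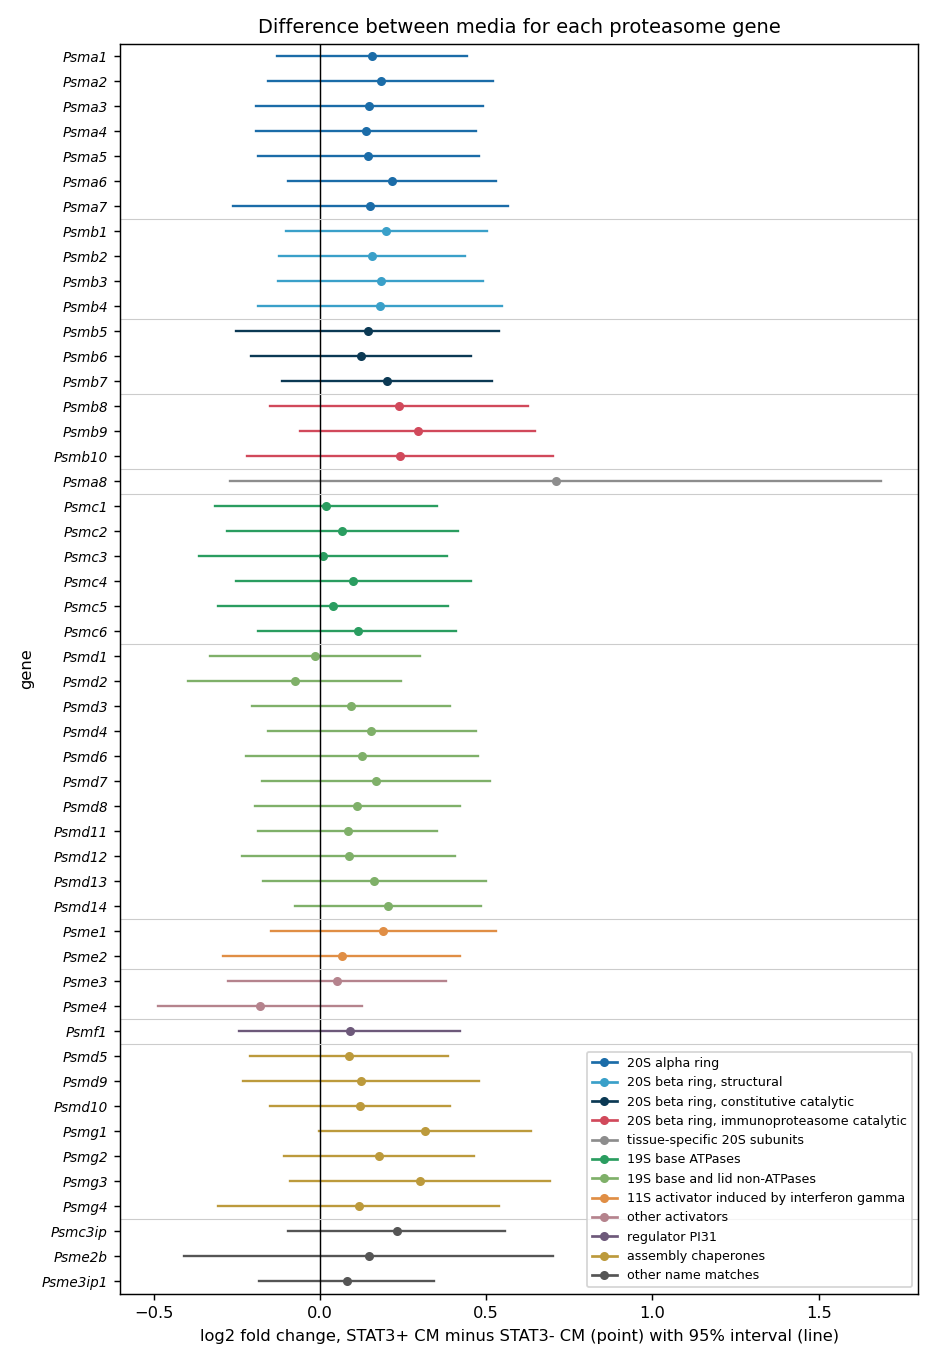
Log2 fold change (x axis, STAT3+ CM minus STAT3- CM) of each of the 50 proteasome genes (y axis), coloured by class, with the 95% interval of the edgeR fit as a line. All 50 intervals cross 0, and 47 points lie to the right of it.

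What the genes did share was their order over the 6 libraries. STAT3- CM replicate 3 held the lowest CPM of 44 of the 50 genes (88.0%), whereas it held the lowest of 24.8% of all genes tested. STAT3+ CM replicate 2 held the highest CPM of 36 of 50 (72.0%), beside 19.6% of all genes. These are 1 library of each group, and the libraries between them did not sort by medium. Summed over the 50 genes, CPM were 12225, 13883 and 11125 in STAT3+ CM, against 11740, 12366 and 9828 in STAT3- CM. The group sums were 12411 ± 1388 CPM in STAT3+ CM and 11311 ± 1322 CPM in STAT3- CM (SD, n = 3 each), so they differed by less than 1 SD. As a share of all reads, the family took 1.18%, 1.33% and 1.15% in STAT3+ CM, against 1.17%, 1.22% and 1.04% in STAT3- CM.

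**Figure D2:**
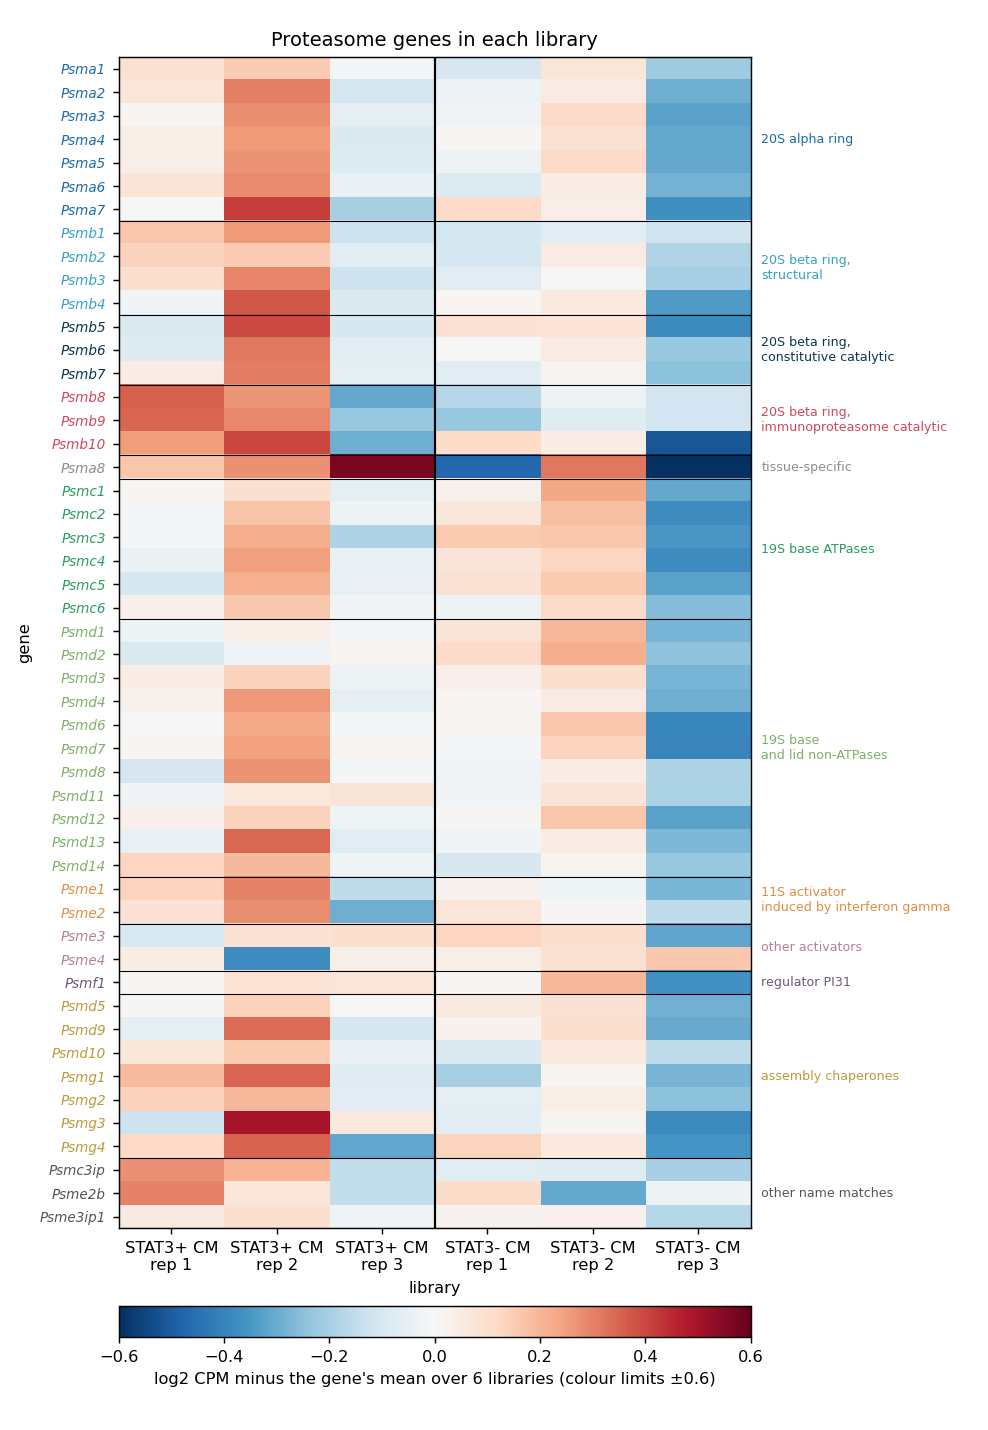
Log2 CPM of each proteasome gene (rows, grouped by class) in each library (columns, STAT3+ CM left of the line and STAT3- CM right of it), minus the gene's mean over the 6 libraries; colours stop at 0.6 in either direction. STAT3+ CM replicate 2 is mostly red and STAT3- CM replicate 3 mostly blue, and Psme4 shows the opposite colours in both.

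The alpha ring, whose 7 subunits hold the gate of the core particle, varied as 1 block between libraries. All 7 genes were highest in STAT3+ CM replicate 2 and lowest in STAT3- CM replicate 3. Psma6 had the smallest p of the ring, with 343, 396 and 317 CPM in STAT3+ CM and 307, 335 and 267 CPM in STAT3- CM (difference on the log2 scale 0.22, SE 0.14, adjusted p = 0.989 by edgeR). By CPM alone Psma2 was the ring's most abundant member, at a mean of 574 CPM in STAT3+ CM and 506 CPM in STAT3- CM. Psma7, the most abundant per transcript length, stood at 380, 508 and 331 CPM in STAT3+ CM and at 411, 390 and 295 CPM in STAT3- CM. The groups overlapped, and STAT3+ CM replicate 2 lay above every other library. The 7 log2 fold changes ran from 0.14 to 0.22 with a median of 0.15.

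The beta subunits without catalytic activity, Psmb1 to Psmb4, gave 4 values between 0.16 and 0.20. Psmb1 had 463, 494 and 379 CPM in STAT3+ CM and 385, 396 and 382 CPM in STAT3- CM (difference on the log2 scale 0.20, SE 0.14, adjusted p = 0.989 by edgeR). Its STAT3- CM libraries lay close together, at 388 ± 7.74 CPM (SD, n = 3), and STAT3+ CM replicate 3 fell below all of them. Psmb1 was therefore 1 of only 4 genes whose lowest library was STAT3+ CM replicate 3, with Psmb8, Psmb9 and Psme2. Psmb3 stood at 289 ± 41.3 CPM in STAT3+ CM and 254 ± 17.4 CPM in STAT3- CM, and Psmb4 at 449 ± 79.8 and 396 ± 57.5 CPM in the same order of groups (SD, n = 3 each).

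The constitutive catalytic subunits are Psmb5, which cuts after hydrophobic residues, Psmb6, which cuts after acidic ones, and Psmb7, which cuts after basic ones. Psmb5 had 201, 280 and 199 CPM in STAT3+ CM, against 226, 225 and 163 CPM in STAT3- CM. Only STAT3+ CM replicate 2 stood above the first pair of STAT3- CM libraries, and the log2 fold change was 0.14 (95% interval -0.25 to 0.54). Psmb6 had 275, 361 and 277 CPM in STAT3+ CM and 290, 299.5 and 248 CPM in STAT3- CM (0.12, SE 0.15). Psmb7 had 419, 503 and 389 CPM in STAT3+ CM and 387, 411 and 343 CPM in STAT3- CM (0.20, SE 0.14, adjusted p = 0.989 by edgeR). Without STAT3+ CM replicate 2 the median of these 3 genes was -0.02.

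Their immunoproteasome counterparts take the same places in newly built particles: Psmb8 (LMP7) that of Psmb5, Psmb9 (LMP2) that of Psmb6 and Psmb10 (MECL-1) that of Psmb7. All 3 were well expressed in both media. Psmb8 had 797, 747 and 503 CPM in STAT3+ CM and 553, 608 and 574 CPM in STAT3- CM. Psmb9 had 274, 263 and 184 CPM in STAT3+ CM and 184, 205 and 199 CPM in STAT3- CM. For both genes STAT3+ CM replicates 1 and 2 stood above every STAT3- CM library and replicate 3 stood at or below all of them. The log2 fold changes were 0.24 for Psmb8 (SE 0.17, 95% interval -0.15 to 0.63) and 0.29 for Psmb9 (SE 0.16, interval -0.06 to 0.65), with adjusted p = 0.989 by edgeR for each. Psmb10 had 124, 137 and 85.1 CPM in STAT3+ CM and 113, 107 and 73.0 CPM in STAT3- CM, with the lowest library of each group at replicate 3 (0.24, interval -0.22 to 0.70). The median of the 3 was 0.24, beside 0.14 for Psmb5, Psmb6 and Psmb7.

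The size of the immunoproteasome values depended on which libraries were counted. Without STAT3+ CM replicate 3 the median of Psmb8, Psmb9 and Psmb10 was 0.42. Psmb1, Psmb8, Psmb9, Psmc3ip and Psmg1 then had unadjusted edgeR p under 0.05. The share of all genes under 0.05 in that fit is not reported here, so these names are not a result about the family. The smallest adjusted p among the 50 genes was 0.476 in that fit, beside 0.989 with all libraries. With both STAT3+ CM replicate 1 and STAT3- CM replicate 3 left out, the median of the 3 was 0.11. Summed CPM of the dendritic cell markers, another cell type with much immunoproteasome, stood lower in STAT3+ CM as given above, and their part in these values was not tested. In bulk RNA, fewer cells of a type and less RNA per cell cannot be told apart.

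**Figure D3:**
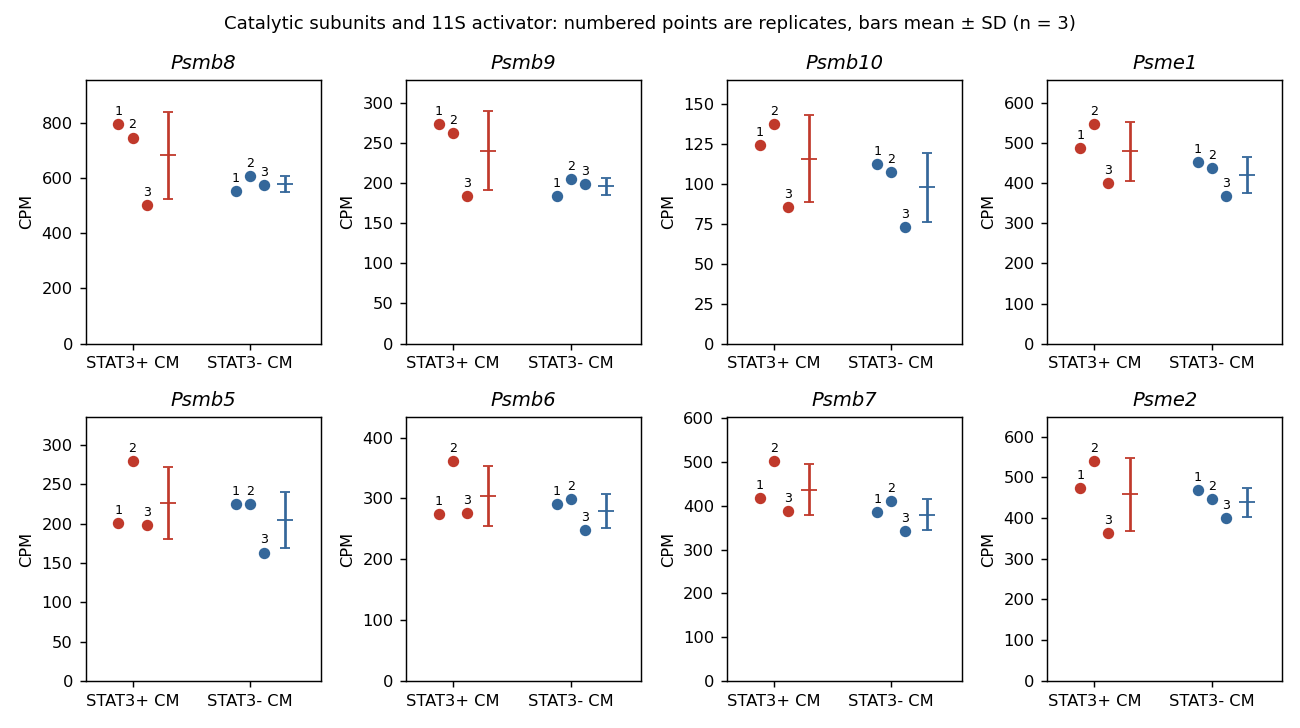
CPM (y axis, from 0) of the immunoproteasome catalytic subunits and Psme1 (top) and of the constitutive catalytic subunits and Psme2 (bottom) in STAT3+ CM (red) and STAT3- CM (blue). Numbered points are replicates and bars give the mean ± SD of 3 libraries; for Psmb8 and Psmb9, STAT3+ CM replicates 1 and 2 lie above and replicate 3 at or below the STAT3- CM points.

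The balance of the alternative catalytic subunits was compared within each library, where the scaling between libraries cancels. Per transcript length, Psmb8 made up 68.7%, 59.6% and 58.3% of the Psmb8 and Psmb5 pair in STAT3+ CM, against 57.5%, 59.8% and 66.0% in STAT3- CM. The immunoproteasome subunit was thus the larger transcript of that pair in all 6 libraries. Psmb9 made up 37.1%, 30.1% and 28.2% of the Psmb9 and Psmb6 pair in STAT3+ CM, against 27.2%, 28.8% and 32.2% in STAT3- CM. Psmb10 took 20.7%, 19.5% and 16.2% of its pair with Psmb7 in STAT3+ CM, against 20.5%, 18.8% and 15.9% in STAT3- CM. The constitutive subunit was the larger in both of those pairs. The mean log2 ratio of counts over the 3 pairs was -0.24 ± 0.285 in STAT3+ CM and -0.33 ± 0.072 in STAT3- CM (SD, n = 3 each). This difference of 0.090 was smaller than the SD within STAT3+ CM, and without STAT3+ CM replicate 1 its sign turned, to -0.066.

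STAT3+ CM replicate 1 had the highest Psmb8 to Psmb5 ratio, 1.99 on the log2 scale, with the highest Psmb8 (797 CPM) and a Psmb5 level of 201 CPM, below the 280 CPM of STAT3+ CM replicate 2. STAT3- CM replicate 3 came next, at 1.81, with intermediate Psmb8 and the lowest Psmb5 of all. Psmb9 kept a nearly fixed ratio to Psmb8, its neighbour in the MHC region, at -1.54, -1.51 and -1.45 in STAT3+ CM, against -1.59, -1.57 and -1.53 in STAT3- CM. Psmb10, which lies on another chromosome, did not, with log2 ratios to Psmb8 of -2.69, -2.44 and -2.56 in STAT3+ CM, against -2.30, -2.50 and -2.98 in STAT3- CM. The part of gene location in these ratios was not tested.

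**Figure D4:**
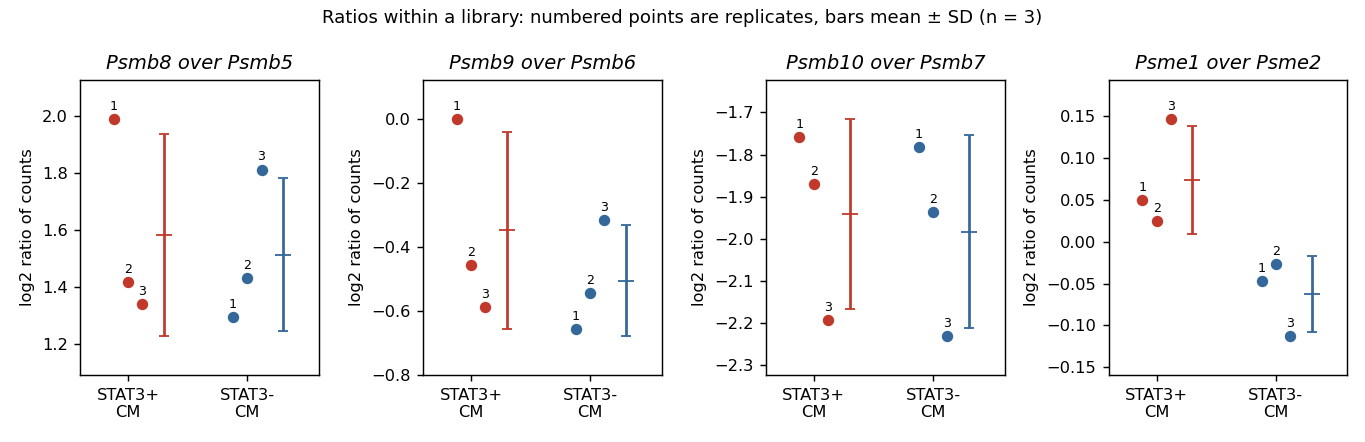
Log2 ratio of counts within each library (y axis) for the 3 immunoproteasome and constitutive pairs and for Psme1 over Psme2, in STAT3+ CM (red) and STAT3- CM (blue). Numbered points are replicates and bars the mean ± SD of 3 libraries; the groups overlap in the 3 catalytic pairs and not in Psme1 over Psme2.

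The start regions of Psmb5, Psmb6, Psmb8 and Psmb9 and of the 11S gene Psme1 are shown with the motifs they hold. Psmb7 and Psmb10 are not shown, as they were not among the genes with a match to any of these motifs. Windows were not found for every member, and whether Psmb7 and Psmb10 had one is not reported here. The motifs were therefore not compared between constitutive and immunoproteasome genes, and their part in the expression values was not tested. Each window is from RefSeq on GRCm38.p6 and spans 250 bases before to 50 after the annotated start, written 5′ to 3′ on the gene's own strand. Capitals mark matches, on either strand, to the antioxidant response element that NRF1 can bind (TGACNNNGC), the interferon-stimulated response element (GAAA, NN and GAAA in a row), the gamma-activated site (TTCNNNGAA) or the CCAAT box. The Psmb5 window, chr14:54617946-54618245 on the minus strand, and the Psmb6 window, chr11:70525107-70525406 on the plus strand, each hold an antioxidant response element. The Psmb8 window, chr17:34197945-34198244 on the plus strand, holds a gamma-activated site. The Psmb9 window, chr17:34187281-34187580 on the minus strand, holds a CCAAT box, and 275 of its 300 bases are also the start window of Tap1 on the other strand. The Psme1 window, chr14:55578244-55578543 on the plus strand, holds an interferon-stimulated response element.
Psmb5: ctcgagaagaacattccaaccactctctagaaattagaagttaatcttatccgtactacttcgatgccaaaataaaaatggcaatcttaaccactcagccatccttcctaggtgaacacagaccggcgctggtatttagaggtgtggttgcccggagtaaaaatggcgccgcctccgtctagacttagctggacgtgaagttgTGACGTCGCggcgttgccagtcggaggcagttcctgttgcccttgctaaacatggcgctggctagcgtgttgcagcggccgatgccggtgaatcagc
Psmb6: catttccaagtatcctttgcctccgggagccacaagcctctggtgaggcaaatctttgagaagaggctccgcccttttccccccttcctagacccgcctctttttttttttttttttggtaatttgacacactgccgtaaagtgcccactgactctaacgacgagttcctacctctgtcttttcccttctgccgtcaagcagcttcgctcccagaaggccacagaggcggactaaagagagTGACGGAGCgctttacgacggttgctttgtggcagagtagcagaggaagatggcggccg
Psmb8: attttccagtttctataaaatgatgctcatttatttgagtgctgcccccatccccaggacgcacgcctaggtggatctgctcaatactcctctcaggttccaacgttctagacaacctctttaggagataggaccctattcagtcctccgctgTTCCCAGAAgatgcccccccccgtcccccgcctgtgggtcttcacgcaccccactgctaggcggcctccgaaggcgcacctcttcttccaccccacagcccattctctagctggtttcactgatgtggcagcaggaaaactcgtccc
Psmb9: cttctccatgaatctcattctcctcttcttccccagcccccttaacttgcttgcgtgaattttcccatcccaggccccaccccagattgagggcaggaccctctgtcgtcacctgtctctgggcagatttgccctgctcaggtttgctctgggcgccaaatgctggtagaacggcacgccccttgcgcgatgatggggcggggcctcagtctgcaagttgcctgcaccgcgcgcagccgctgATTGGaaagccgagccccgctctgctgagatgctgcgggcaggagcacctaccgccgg
Psme1: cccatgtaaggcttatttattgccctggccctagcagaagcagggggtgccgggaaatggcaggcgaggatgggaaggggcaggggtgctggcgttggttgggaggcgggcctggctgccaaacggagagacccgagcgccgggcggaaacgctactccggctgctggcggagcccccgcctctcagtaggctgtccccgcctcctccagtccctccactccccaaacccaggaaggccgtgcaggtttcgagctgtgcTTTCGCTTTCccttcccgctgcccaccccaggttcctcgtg

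Windows were found for 42 of the 50 genes, 46 windows in all. The antioxidant response element stood in 6 of these windows (13.0%), beside 12.4% of all 32851 windows, and the gamma-activated site in 3 (6.52%), beside 8.30%. The CCAAT box stood in 15 (32.6%), beside 37.4%. The interferon-stimulated response element stood in 5 (10.9%), those of Psmb3, Psmd4, Psmd9, Psme1 and Psmg4, beside 3.44% of all windows. A match is a description of letters and not of binding.

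The 6 ATPases of the 19S base, Psmc1 to Psmc6, which unfold the substrate, had the smallest differences of any class of the core machine. Their log2 fold changes ran from 0.009 to 0.11 with a median of 0.05. Psmc1 had 284, 302 and 271 CPM in STAT3+ CM and 287, 331 and 228 CPM in STAT3- CM, so that STAT3- CM held both the highest and the lowest library. Psmc6, with the smallest p of the class, stood at 263 ± 16.9 CPM in STAT3+ CM and 244 ± 31.5 CPM in STAT3- CM (SD, n = 3 each; 0.11, 95% interval -0.19 to 0.41), and Psmc4 had 0.10 (SE 0.16). In all 6 genes STAT3- CM replicate 3 was lowest. For Psmc1, Psmc3 and Psmc5 the sign was positive in 12 of 17 alternative analyses and negative in the rest.

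Among the 11 non-ATPase subunits of base and lid, 9 values lay above 0 and 2 below, with a median of 0.11. Psmd14, the deubiquitinase that removes the ubiquitin chain from an engaged substrate, had the smallest p of the class. It stood at 288, 301 and 260 CPM in STAT3+ CM and 246, 266 and 225 CPM in STAT3- CM (difference on the log2 scale 0.20, SE 0.13, adjusted p = 0.989 by edgeR). Only the lowest STAT3+ CM library fell inside the STAT3- CM range. Psmd4, a ubiquitin receptor, stood at 201 ± 23.0 CPM in STAT3+ CM and 180 ± 22.4 CPM in STAT3- CM (SD, n = 3 each; 0.16, SE 0.14). Psmd2, which docks the shuttle proteins that bring in ubiquitinated substrates, had 400.4, 419 and 430.4 CPM in STAT3+ CM and 462, 496 and 360.2 CPM in STAT3- CM (-0.08, SE 0.14). The STAT3+ CM values of Psmd2 lay between the STAT3- CM ones. Psmd11, the least abundant of the class per transcript length, varied least of the core, with its highest library 1.21-fold above its lowest.

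Core and cap genes differed slightly in how they sat in the libraries. The 14 constitutive 20S genes had a median log2 fold change of 0.16 and the 17 genes of 19S one of 0.09. The mean log2 level of 20S relative to 19S, each gene centred on its own mean, was 0.051, 0.113 and -0.057 in STAT3+ CM, against -0.057, -0.077 and 0.027 in STAT3- CM. Replicate 3 of each group went against the other 2 of that group, so the groups overlapped.

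The interferon-induced 11S activator is a ring of the products of Psme1 and Psme2, which opens the core gate without ubiquitin. Divided by the length of the longest annotated transcript, these genes ranked highest of the family, followed by Psmb8. By CPM alone Psmb8 lay above both, at a mean of 682 CPM in STAT3+ CM and 578.5 CPM in STAT3- CM. Psme1 had 489, 549 and 402 CPM in STAT3+ CM and 453, 439 and 370 CPM in STAT3- CM (difference on the log2 scale 0.19, SE 0.15, adjusted p = 0.989 by edgeR). Psme2 had 473, 540 and 363 CPM in STAT3+ CM and 468, 447 and 399.8 CPM in STAT3- CM (0.07, SE 0.16, adjusted p = 0.993 by edgeR). The groups overlapped in both genes. The ratio of the 2 partners did not overlap: log2 Psme1 over Psme2 was 0.050, 0.025 and 0.147 in STAT3+ CM, against -0.047, -0.027 and -0.113 in STAT3- CM. The difference of 0.14 is small, was not tested, and was singled out after the values were seen. Psme2b, a copy of Psme2 with 1 exon in GENCODE on chromosome 11, took 81 to 120 counts per library. Whether reads were shared between it and Psme2 was not tested, so its value is uncertain.

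The other activators and PI31 gave 1 value below 0 and 2 above. Psme3 forms a nuclear homopolymeric ring related to 11S. It stood at 332, 376 and 377 CPM in STAT3+ CM and 386, 377 and 284 CPM in STAT3- CM (0.05, SE 0.15). Psme4 encodes PA200, a single large cap known for its role with acetylated histones. It stood at 96.8, 72.4 and 96.1 CPM in STAT3+ CM and 96.1, 99.8 and 105 CPM in STAT3- CM (-0.18, SE 0.14, 95% interval -0.49 to 0.13, adjusted p = 0.989 by edgeR). Its highest library was the lowest of most other members, STAT3- CM replicate 3, and its lowest was their highest, STAT3+ CM replicate 2. Of all genes tested, 22.9% were highest in STAT3- CM replicate 3 and 22.4% lowest in STAT3+ CM replicate 2. Psme4 was the only 1 of the 50 genes with a negative value in all 17 alternative analyses. Psmf1, which encodes the regulator PI31, stood at 53.6, 56.6 and 56.2 CPM in STAT3+ CM and 53.6, 61.3 and 41.5 CPM in STAT3- CM (0.09, SE 0.15).

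The assembly chaperones build the particle and leave it. Psmg1 and Psmg2 encode partners that start the alpha ring, Psmg3 and Psmg4 a second pair, and Psmd5, Psmd9 and Psmd10 chaperones of the 19S base. All 7 values were above 0, with a median of 0.12, and all 7 genes were lowest in STAT3- CM replicate 3 and highest in STAT3+ CM replicate 2. Psmg1 had the smallest p of the whole family, 0.0525 before and 0.989 after adjustment by edgeR. It stood at 75.3, 84.3 and 62.8 CPM in STAT3+ CM and 57.5, 66.7 and 54.5 CPM in STAT3- CM (difference on the log2 scale 0.31, SE 0.14, interval -0.004 to 0.63). STAT3+ CM replicate 3 lay inside the STAT3- CM range. Psmg3 had 44.1, 67.8 and 50.3 CPM in STAT3+ CM and 46.0, 48.7 and 36.9 CPM in STAT3- CM (0.30, SE 0.18), and its highest library by far was STAT3+ CM replicate 2. Psmg2 stood at 67.2 ± 6.11 CPM in STAT3+ CM and 59.4 ± 5.76 CPM in STAT3- CM (SD, n = 3 each; 0.18, SE 0.13). Psmd9 stood at 53.7 ± 9.30 and 49.2 ± 7.02 CPM in the same order of groups.

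A few names of the pattern are not part of the particle in T cells. Psma8, a testis-specific alpha subunit, had 5 to 20 counts per library, or 0.264, 0.288 and 0.361 CPM in STAT3+ CM and 0.154, 0.298 and 0.108 CPM in STAT3- CM. Its log2 fold change of 0.71 was the largest of the 50 and its interval, -0.27 to 1.69, the widest, at a counting error of 44.7% in its lowest library. Psmb11, the catalytic subunit of the thymus, was not among the rows. Psmc3ip encodes a partner of meiotic recombination enzymes rather than a subunit, and stood at 30.3, 28.9 and 22.6 CPM in STAT3+ CM and 24.0, 23.8 and 21.8 CPM in STAT3- CM (0.23, SE 0.15). Psme3ip1, named for binding Psme3, had 0.08 (SE 0.12).

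Genes around the proteasome were read from lists chosen with earlier results of these data known, and neither edgeR nor DESeq2 called any of them. Unadjusted edgeR p under 0.05 occurred in 2 genes of the interferon gamma list and 3 of the type I interferon list, of 11 and 12 genes tested, beside 3.64% of all genes. It occurred in 0 genes of the other lists around the proteasome. The cell type markers given above are a separate set, in which 4 of the 7 dendritic cell markers tested had such a p. Of 12 proteasome partner genes 11 were tested, 6 above 0 and 5 below, with a median of 0.12. Sem1, a small 19S lid subunit that the name pattern misses, was the only 1 of these whose groups did not overlap, beside 7.95% of all genes. It had 228, 246 and 197 CPM in STAT3+ CM and 183, 193 and 191 CPM in STAT3- CM (difference on the log2 scale 0.24, SE 0.13, adjusted p = 0.989 by edgeR). Pomp, the chaperone that matures the beta ring, had 291, 350.0 and 284 CPM in STAT3+ CM and 284, 299.0 and 247 CPM in STAT3- CM (0.16, SE 0.14). The importin gene Ipo9, whose product carries proteasomes into the nucleus, had -0.24 (SE 0.13).

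Of the 10 genes for transcription of proteasome genes, 4 lay above 0 and 6 below, with a median of -0.07. Nfe2l1 itself stood at 97.2, 95.1 and 113 CPM in STAT3+ CM and 126, 108 and 134 CPM in STAT3- CM (-0.27, SE 0.13, adjusted p = 0.989 by edgeR). Its highest library was STAT3- CM replicate 3, as for 22.9% of all genes tested, and its lowest STAT3+ CM replicate 2, as for 22.4%. Most subunits had the reverse order, and a link between Nfe2l1 and the subunits was not tested. The other 2 of that list with the smallest p were the CCAAT-binding factor genes Nfya (-0.12, SE 0.12) and Nfyb (0.14, SE 0.12). Of 16 genes for ubiquitin supply and delivery 9 lay above 0, with a median of 0.03, among them the ubiquitin fusion gene Rps27a (0.26, SE 0.16). The activating enzyme gene Uba6 had -0.18 (SE 0.14).

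Genes downstream, which trim, carry and load the peptides, had small differences as well. Of 16 genes for class I peptide supply 10 lay above 0, with a median of 0.09. Tap1, the transporter subunit that shares its start region with Psmb9, had 367, 303 and 253 CPM in STAT3+ CM and 282, 284 and 293 CPM in STAT3- CM (0.10, SE 0.15, adjusted p = 0.989 by edgeR). Like Psmb8 and Psmb9, it was highest in STAT3+ CM replicate 1 and lowest in STAT3+ CM replicate 3. The peptidase gene Lap3 (0.17, SE 0.14), Tap2 (0.12, SE 0.13) and the aminopeptidase gene Npepps (-0.13, SE 0.13) had the smallest p of that list.

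Genes of the type I interferon response varied between the same libraries and more widely on the log2 scale, but several had low levels. Oas2 averaged 0.92 CPM in STAT3+ CM and 0.44 CPM in STAT3- CM, and Rsad2 1.05 and 0.51 CPM. The most abundant, Bst2 (100.3 and 86.5 CPM), had a log2 fold change of 0.21, Stat2 (33.9 and 35.4 CPM) -0.06 and Ifit2 (21.9 and 16.8 CPM) 0.38. The part of low counts in the wider range was not tested. The 12 genes of the type I interferon response had 10 log2 fold changes above 0 and 2 below, with a median of 0.68 and 0 called, and 2 had groups that did not overlap, both higher in STAT3+ CM, beside 3.78% of all genes. Their mean log2 level, relative to the mean of all 6 libraries, was 0.67, 0.45 and -0.23 in STAT3+ CM, against 0.16, -0.24 and -0.81 in STAT3- CM. The 3 immunoproteasome catalytic genes had 0.32, 0.32 and -0.27 in STAT3+ CM, against -0.10, -0.02 and -0.25 in STAT3- CM on that scale. Both gene groups were high in STAT3+ CM replicates 1 and 2, and the mean of each lay below 0 in replicate 3 of either medium. In STAT3- CM replicate 3 only Psmb10 (73.0 CPM) was at its lowest. Psmb8 (574 CPM) and Psmb9 (199 CPM) lay there between the other STAT3- CM libraries. The type I interferon genes were also low in STAT3- CM replicate 2, where the immunoproteasome genes were near 0. The 7 CD8 T cell markers had 0.25, 0.12 and -0.10 in STAT3+ CM, against -0.11, -0.13 and -0.03 in STAT3- CM. All 7 of their log2 fold changes were above 0, with a median of 0.20, and the part of these markers in the immunoproteasome values was not tested. The 31 constitutive genes had 0.014, 0.228 and -0.054 in STAT3+ CM, against 0.003, 0.094 and -0.285 in STAT3- CM, so they lacked the high value in STAT3+ CM replicate 1. The part of interferon signalling in these values was not tested.

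Among the 11 genes of the interferon gamma pathway, 7 lay above 0, with a median of 0.25 and 0 called. Irf1, the transcription factor that induces the immunoproteasome genes, had 258, 264 and 178 CPM in STAT3+ CM and 224, 199 and 142 CPM in STAT3- CM (0.31, SE 0.20, adjusted p = 0.989 by edgeR). Irf8 had the smallest p of the list and groups that did not overlap, as in 3.78% of all genes tested with STAT3+ CM higher. Irf8 stood at 453, 464 and 516 CPM in STAT3+ CM and 295, 311 and 381 CPM in STAT3- CM (0.54, SE 0.14, adjusted p = 0.702 by edgeR and 0.0714 by DESeq2). Its libraries were not ordered like those of Psmb8, since STAT3+ CM replicate 3 was its highest. Jak2 had -0.35 (SE 0.15) and the receptor gene Ifngr2 0.58 (SE 0.33).

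**Figure D5:**
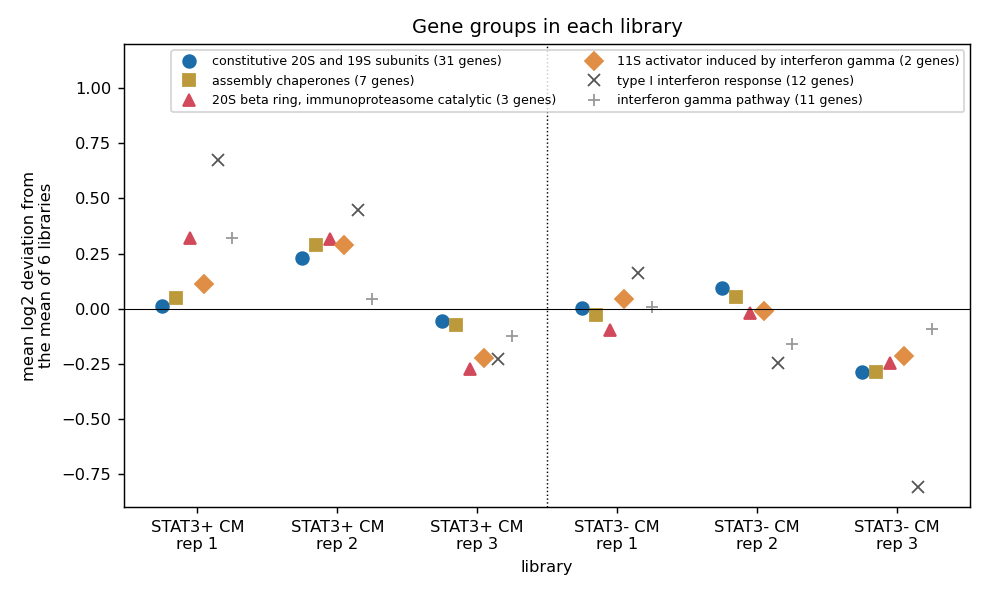
Mean log2 deviation of 6 gene groups from their own mean over the 6 libraries (y axis) in each library (x axis), STAT3+ CM left of the dotted line and STAT3- CM right of it; points of a library are spread sideways for legibility. In STAT3+ CM replicate 1 the immunoproteasome catalytic genes are at 0.32 and the constitutive 20S and 19S genes at 0.014. The type I interferon genes, several of them at low CPM, range most widely.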

How the data were processed

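The authors deposited raw counts (whole numbers) for each gene in each library. Per the submitters' processing notes the tools were FastQC, TopHat2 2.0.10, Bowtie 1.0.0, SAMtools 0.1.19 and Cufflinks 2.2.1 with GRCm39; the program and annotation behind the counts, and whether strand was used, were not given in the sources used here. No gene in the table had fewer than 40 counts over the libraries. Here filterByExpr kept 14319 of 14481 genes. Libraries were TMM-scaled and compared in edgeR 4.0.16 (R 4.3.3) by its quasi-likelihood F test with robust dispersion, two-sided, with Benjamini-Hochberg adjustment over all 14319 and a threshold of 0.05. Log2 CPM used a prior count of 2. SEs were derived from the fold change and F. Length is the longest coding transcript in GENCODE M21, found for 49 of 50 genes. It need not be the transcript expressed, so orders per length are approximate. Alternatives used DESeq2 1.42.0, limma 3.58.1, other scalings and filters, the older quasi-likelihood method, the replicate block and left-out libraries. The fit was first tested on simulated data. Members, lists and the rule for named genes were chosen with earlier results of these data known; the rule took the catalytic and activator genes, those with the smallest p, and the most and least abundant per length in each class, and other members are named for completeness of a class or after their values were seen. Values of some listed genes are not reported here.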

Additional observations from a re-analysis of the deposited data

How the results depend on the processing

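In each of 17 alternatives 0 of the proteasome genes tested were called, with smallest adjusted p values from 0.476 to 1.00. Genes called over the whole table numbered 48 by DESeq2, 16 by limma-voom with sample quality weights, 10 with both STAT3+ CM replicate 1 and STAT3- CM replicate 3 left out, and 0 to 18 when 1 library at a time was left out. The median log2 fold change of the family ran from 0.04 (without STAT3- CM replicate 3) to 0.22 (without STAT3- CM replicate 2), that of the immunoproteasome catalytic genes from 0.11 to 0.42, both within 1 SD between replicates of the reported value. The replicate block rests on numbers that did not pair the libraries (same-numbered libraries correlated at -0.261, 0.281 and 0.182 once group means were removed). With this block the family's median was 0.14, 0 members were called and 1, Psmg1, had an unadjusted p under 0.05. Psmg1 also had such a p with upper quartile scaling, as did 1 to 5 members in some of the fits that dropped a single library. The share of all genes under 0.05 in these fits is not reported here, so no member is singled out by them. With library totals only 44 of 50 values lay above 0, as the median of all genes moved by -0.042; with sample quality weights 41 did. Of the 50 genes, 29 were above 0 in every alternative that tested them, 1 (Psme4) below 0 in every one, and 20 took both signs. The mean log2 ratio of immunoproteasome to constitutive subunits did not move by more than the replicate SD of 0.208 when libraries were left out, but its sign turned without STAT3+ CM replicate 1 (-0.066) and without that library and STAT3- CM replicate 3 (-0.026), and the cause was not tested. Depth limits only Psma8 and Psme2b.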
